A study of Mus musculus with 12 samples.

Results

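Post-weaning ductal macrophages were compared with ductal macrophages of pregnancy across all genes of the deposited count table. The comparison set the 3 post-weaning libraries, from mice 1 month after weaning, against the 3 pregnant libraries, from mice at day 16.5 of pregnancy, so that it used 6 of the 12 libraries of the study. All mice were female C57BL/6, with no transgene, knockout or drug named in the labels. The stage of the reproductive cycle was the difference between the groups that the labels name. The other 6 libraries, 3 from virgin and 3 from lactating mice, entered the fit as further stages, and the virgin libraries served as the reference from mice labelled virgin. Each library was made from 2000 sorted cells of the mammary gland labelled ductal macrophages, and the 3 libraries of a stage are labelled biological replicates. The sources used here do not give the gate of the sort, the age of the mice or whether a library held cells of 1 mouse or of several.

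Ductal macrophages lie between the luminal and basal layers of the mammary epithelium, where they sample the epithelial cells and take up those that die. In pregnancy the epithelium divides and begins to make milk proteins, and after weaning it regresses by cell death and is cleared before the ducts return to a resting form. Macrophages that clear dying cells use bridging and scavenger receptors, handle the lipid they ingest through nuclear receptors such as PPAR-gamma, and carry inhibitory receptors that restrain their activation.

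Library totals were 9677825 to 11576516 counts after weaning and 8425970 to 21204704 counts in pregnancy, with Pregnant replicate 3 the deepest of the series. Defining macrophage transcripts were present in all 6 libraries. Csf1r, the receptor for the macrophage growth factor CSF-1, stood at 901, 1138 and 1196 CPM after weaning and 1377, 1287 and 1146 CPM in pregnancy, where CPM are counts scaled to a common library size by TMM. The gene of the surface marker F4/80, Adgre1, had 680.4, 748 and 798 CPM after weaning and 478, 673 and 671 CPM in pregnancy. Neither passed the test (edgeR adjusted p = 0.994 and 0.978), and of the 22 macrophage identity genes 0 passed by edgeR or limma-voom, with 4 higher and 2 lower after weaning at an unadjusted p under 0.05 and 1 higher and 2 lower by DESeq2. With the 6 compared libraries fitted alone 3 were higher and 1 lower. In 11 of the 22, Adgre1 among them, all post-weaning libraries lay above all pregnant ones, and in 3 below, against 14% and 13.3% of all genes. Itgam, which encodes CD11b, was low, at 2.38, 8.26 and 1.81 CPM after weaning and 3.56, 2.29 and 6 CPM in pregnancy, and Itgax, which encodes CD11c, at 178, 244 and 262 CPM after weaning and 302, 283 and 543 CPM in pregnancy (edgeR adjusted p = 0.404).

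Transcripts of other cells differed between the groups and are given here because they move with some results below. Wap, a milk protein gene, had 0 counts in all 3 post-weaning libraries and 1024, 80 and 814 counts in the pregnant libraries. Csn2, the milk protein beta-casein, stood at 39.8, 47.1 and 17.7 CPM after weaning and 3111, 316 and 456 CPM in pregnancy (log2 fold change -5.21 ± 1.53, edgeR adjusted p = 0.205), and it passed the test without Lactating replicate 3 (edgeR adjusted p = 0.00689). Not all milk protein genes separated the groups: Csn1s1, an alpha-casein, stood at 304, 207 and 60.9 CPM after weaning and 1322, 201 and 314 CPM in pregnancy, and Lalba, alpha-lactalbumin, at 20.97, 5.92 and 5.62 CPM after weaning and 9.67, 0.229 and 3.23 CPM in pregnancy, both overlapping (edgeR adjusted p = 0.827 and 0.975) and chosen after their values were seen. The list of 25 milk protein and secretory cell genes, which holds some genes macrophages also express, took 0.452 to 0.637% of the counts after weaning and 0.419 to 1.81% in pregnancy. Luminal epithelial genes took 0.0434 to 0.133% and 0.0495 to 0.0637%, fibroblast genes 0.0051 to 0.0194% and 0.000487 to 0.000877%, endothelial genes 0.00248 to 0.0142% and 0.000443 to 0.00184%, and neutrophil genes 0.0284 to 0.0676% and 0.00797 to 0.013%, after weaning and in pregnancy respectively. Adipocyte genes took 0.0133 to 0.0161% after weaning and 0.00801 to 0.00969% in pregnancy, and of 6 tested 5 were positive and 1 negative. The neutrophil granule gene S100a9 and the adipocyte gene Plin1 had 0 counts in all 12 libraries of the study, so they do not compare the groups. The part of these other cells in the results was not tested. In RNA from pooled cells, fewer cells of a type and less RNA per cell cannot be told apart.

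Of 12672 genes tested, 91 differed between post-weaning and pregnant ductal macrophages at an edgeR adjusted p under 0.05 (0.718%). After weaning 73 genes were higher (0.576%) and 18 were lower (0.142%). The genes that were higher include those for immunoglobulin-like and Fc receptors of myeloid cells, for receptors of dying cells and lipid, and a set of immediate early and NF-kB-responsive genes. Genes that were lower include the antigen-processing enzyme gene Ifi30, the complement gene Cfp, and genes of the secretory epithelium. Called genes were abundant ones: their median of mean log2 CPM over the 6 libraries was 7.71 for those higher and 6.95 for those lower, against 3.94 for all genes tested. In all 91 the 3 post-weaning libraries did not overlap the 3 pregnant libraries, which held for 27.3% of all genes tested.

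The number of calls fell whichever of the 6 compared libraries was left out. Leaving out 1 of the 6 libraries at a time left 1 to 33 calls: with Post-weaning replicate 1, 2 or 3 out there were 15, 10 and 9 calls, and with Pregnant replicate 1, 2 or 3 out there were 33, 1 and 6. Lactating replicate 3, whose spread the fit shares, stood apart from the other libraries, with Malat1 at 37476 CPM and Wap at 14816 CPM. Without it 308 genes passed, all 91 among them, and leaving out 1 more of the 6 libraries then left 126 to 198 calls.

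**Figure D1:**
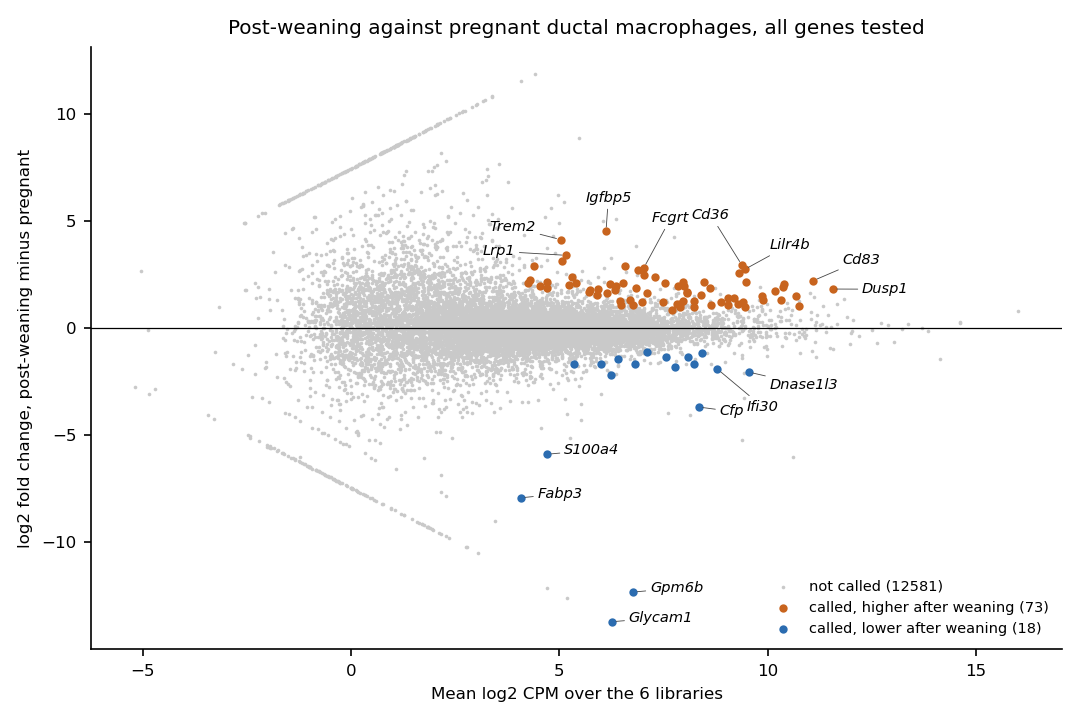
Each point is 1 of the 12672 genes tested, with its mean log2 CPM over the 3 post-weaning and 3 pregnant libraries on the horizontal axis and its log2 fold change, post-weaning minus pregnant, on the vertical axis. Orange points are the 73 genes called higher after weaning and blue points the 18 called lower. Of the 394 genes past 5 on the log2 scale in either direction, 296 had 0 counts in all 3 libraries of 1 group; these include the straight bands, where the fitted fold change depends on the prior count.

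The gene with the smallest adjusted p was Lilr4b (Entrez gene 14727, chromosome 10, 51480612 to 51486329 of GRCm38.p6), the immunoglobulin-like receptor gp49A of myeloid cells. Its level was 1269, 1147 and 1227 CPM after weaning and 209, 173 and 158 CPM in pregnancy. The highest pregnant library lay far below the lowest post-weaning one, and the difference was log2 fold change 2.75 ± 0.24, edgeR adjusted p = 0.00149 (SE, n = 3 per stage). Lilr4b was the only gene called in all 6 fits that left out 1 of the compared libraries, with a highest edgeR adjusted p of 0.0299, without Pregnant replicate 2. The neighbouring and closely similar gene Lilrb4a (chromosome 10, 51490898 to 51496613), which encodes the inhibitory receptor gp49B, stood at 1859, 1747 and 1828 CPM after weaning and 766, 713 and 696 CPM in pregnancy (log2 fold change 1.32 ± 0.26, edgeR adjusted p = 0.0485). The sources used here do not give how reads were divided between such copies, so the split between the pair is uncertain.

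Fcgrt (chromosome 7, 45092993 to 45103822) encodes the neonatal Fc receptor, which rescues IgG and albumin from lysosomal breakdown. It stood at 179, 216 and 289 CPM after weaning and 26.2, 34.5 and 36 CPM in pregnancy. The groups did not overlap, and the difference was log2 fold change 2.82 ± 0.35, edgeR adjusted p = 0.00796. Cd72, an inhibitory C-type lectin receptor, stood at 550.0, 475 and 593 CPM after weaning and 245, 205 and 308 CPM in pregnancy (log2 fold change 1.10 ± 0.20, edgeR adjusted p = 0.0316). Of 26 tested genes for Fc, LILR, CD300 and MS4A receptors these 4 were higher and 0 were lower, with a median log2 fold change of 0.56 against 0.01 for all genes tested, and in 14 of the 26 all post-weaning libraries lay above all pregnant ones (14% of all genes). Leaving out 1 of the 6 libraries ended the calls of Cd72 and Lilrb4a in every such fit, and that of Fcgrt without Pregnant replicate 2 (edgeR adjusted p = 0.0674) or Pregnant replicate 3. With Lactating replicate 3 also left out, all 4 were called in all 6 such fits. In the fit to the 6 compared libraries alone the list had 7 higher and 3 lower. The replicates are shown by stage in the plot of receptor, uptake and lipid genes.

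**Figure D2:**
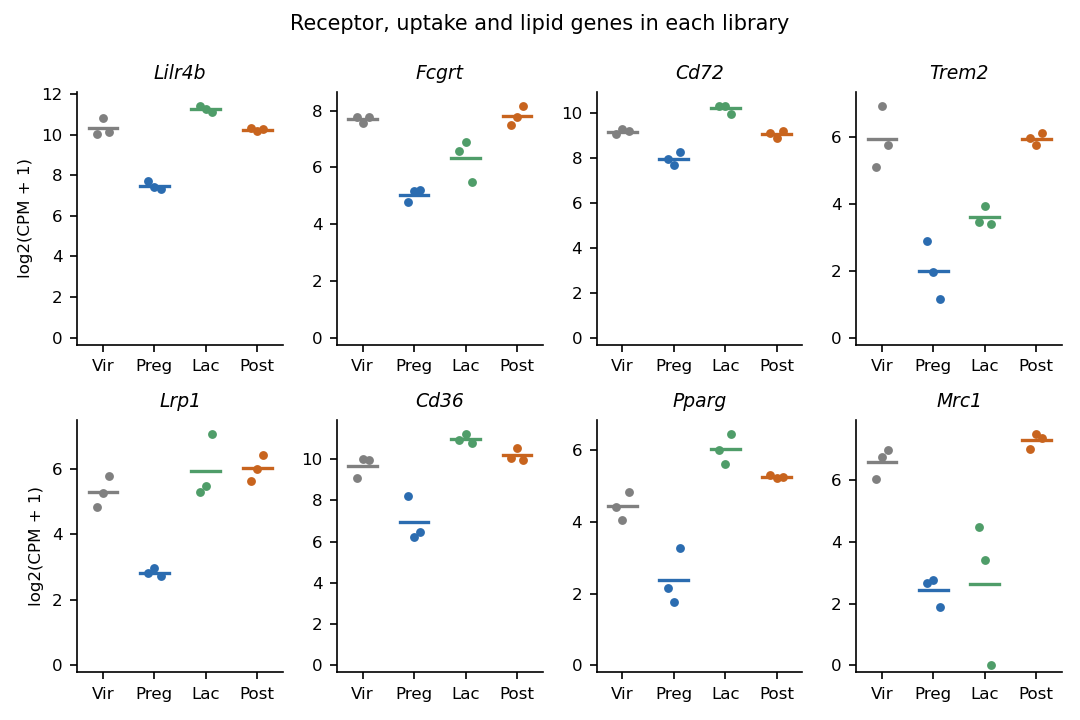
Each panel shows 1 gene, with log2(CPM + 1) on the vertical axis and the stages virgin, pregnant, lactating and post-weaning on the horizontal axis; points are the 3 libraries of a stage and bars their mean. In each of the 8 panels the 3 post-weaning points lie above the 3 pregnant points, with Lilr4b at 1147 to 1269 CPM against 158 to 209 CPM.

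A few genes for receptors of dying cells and lipid were higher after weaning. Trem2 (chromosome 17, 48346401 to 48352276), which encodes a receptor for lipids and lipoproteins on macrophages, stood at 62.1, 53.2 and 69.7 CPM after weaning and 6.45, 2.87 and 1.24 CPM in pregnancy. The highest pregnant library was far below the lowest post-weaning one, and the difference was log2 fold change 4.15 ± 0.65, edgeR adjusted p = 0.0184. Lrp1 (chromosome 10, 127538157 to 127621148), an endocytic receptor that takes part in the uptake of apoptotic cells and lipoproteins, stood at 48.1, 63.2 and 84.2 CPM after weaning and 6, 6.77 and 5.59 CPM in pregnancy (log2 fold change 3.41 ± 0.52, edgeR adjusted p = 0.0165). The pregnant libraries lay close together and the post-weaning ones were spread, without overlap.

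Cd36 (chromosome 5, 17781690 to 17888959), a scavenger receptor for oxidised lipid, fatty acids and apoptotic cells, stood at 1072, 1470.0 and 994 CPM after weaning and 295, 73.8 and 86.4 CPM in pregnancy. Pregnant replicate 1 was the highest of its stage, and the groups did not overlap (log2 fold change 2.96 ± 0.50, edgeR adjusted p = 0.0231). Pparg (chromosome 6, 115360879 to 115490404) encodes PPAR-gamma, the nuclear receptor that switches on lipid uptake genes, Cd36 among them. It stood at 38.6, 36.3 and 37.3 CPM after weaning and 3.45, 2.41 and 8.65 CPM in pregnancy (log2 fold change 2.93 ± 0.49, edgeR adjusted p = 0.0231). The post-weaning libraries agreed closely and the highest pregnant library, replicate 3, stayed far below them.

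No other member of the uptake and lipid-handling lists passed in the edgeR fit to all 12 libraries. Of 29 tested apoptotic cell uptake genes, 3 were higher (Trem2, Lrp1 and Cd36) and 0 lower, with a median log2 fold change of 0.20. Of 29 PPAR and LXR lipid-handling genes, 2 were higher (Cd36 and Pparg) and 0 lower, with a median of 0.21. DESeq2 called 7 of the first list higher and 0 lower, and limma-voom 4 and 0. Of the second list DESeq2 called 2 higher and 1 lower, and limma-voom 1 and 1. In the fit to the 6 compared libraries alone the first list had 8 higher and 1 lower and the second 3 higher and 2 lower. The TAM receptor genes Mertk and Axl, which bind phosphatidylserine bridging proteins, stood at 19.8, 56.7 and 63.3 CPM after weaning and 18.3, 34.9 and 64.7 CPM in pregnancy for Mertk and 709.6, 914 and 822 CPM after weaning and 928, 1055 and 804 CPM in pregnancy for Axl, overlapping between the groups (edgeR adjusted p = 0.998 and 0.987), and were chosen after their values were seen. Mrc1, the mannose receptor CD206, stood at 129, 183 and 166 CPM after weaning and 5.45, 5.85 and 2.73 CPM in pregnancy. Its log2 fold change of 5.10 ± 1.15 was larger than those of the 4 called genes, its edgeR adjusted p was 0.0853, and that p was 0.000229 without Lactating replicate 3, where Mrc1 had 0 counts. None of Trem2, Lrp1, Cd36 and Pparg was called without Pregnant replicate 2, at edgeR adjusted p = 0.124 to 0.132, nor without Post-weaning replicate 2 or 3. Lrp1 alone was called without Post-weaning replicate 1, and Pparg alone without Pregnant replicate 3. With Lactating replicate 3 also left out, all 4 were called in all 6 such fits, with a highest edgeR adjusted p of 0.045.

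Immediate early genes, which cells switch on within minutes of a stimulus without new protein synthesis and which also respond to tissue dissociation, held more called members than any other of the 44 lists. Of 35 tested immediate early and stress genes, 11 were higher after weaning and 0 were lower, against 0.576% of all genes called higher. Their median log2 fold change was 1.53, and in 29 of the 35 all post-weaning libraries lay above all pregnant ones (14% of all genes). The list took 2.0 to 2.12% of the counts after weaning, 0.714 to 0.896% in pregnancy and 1.76 to 2.76% in virgin libraries. The part of cell handling in this difference was not tested: the labels give no times of sorting, and the 15 tested heat-shock genes, another set that responds to handling, had a median of 0.49 with 0 called by edgeR or limma-voom, 4 higher and 1 lower at an unadjusted p under 0.05 and 1 lower by DESeq2. Among the heat-shock genes 6 were higher and 1 was lower in the fit to the 6 compared libraries alone. All post-weaning libraries lay above all pregnant ones in 8 of the 15 (14% of all genes). The list took 0.255 to 0.391% of the counts after weaning and 0.205 to 0.241% in pregnancy.

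Fos (chromosome 12, 85473890 to 85477274), a subunit of the AP-1 transcription factor, stood at 2132, 1672 and 1528 CPM after weaning and 610.3, 438 and 547 CPM in pregnancy (log2 fold change 1.74 ± 0.22, edgeR adjusted p = 0.00796). Every post-weaning library was more than 2-fold above every pregnant one. Egr1, a zinc finger factor induced by growth signals, stood at 1308, 1136 and 1072 CPM after weaning and 318, 230.2 and 237 CPM in pregnancy (log2 fold change 2.16 ± 0.35, edgeR adjusted p = 0.0184). Its groups did not overlap either. Nr4a1 (chromosome 15, 101253902 to 101274795), a nuclear receptor that responds to antigen and inflammatory signals, stood at 263, 298 and 341 CPM after weaning and 78.6, 54.5 and 73 CPM in pregnancy (log2 fold change 2.13 ± 0.33, edgeR adjusted p = 0.0184). Junb, a partner of FOS, stood at 2348, 2511 and 2392 CPM after weaning and 1047, 709.6 and 756 CPM in pregnancy (log2 fold change 1.53 ± 0.29, edgeR adjusted p = 0.0363). Klf6 (log2 fold change 1.24 ± 0.20) and Csrnp1 (2.05 ± 0.37) are further transcription factor genes of the list, with edgeR adjusted p = 0.0184 and 0.0316.

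Of the called members, 5 restrain signalling or act in stress responses. Dusp1 (chromosome 17, 26505591 to 26508472), a phosphatase that switches off MAP kinases, stood at 4314, 4836 and 4985 CPM after weaning and 1782, 1209 and 969.6 CPM in pregnancy (log2 fold change 1.84 ± 0.33, edgeR adjusted p = 0.03). Zfp36 (chromosome 7, 28376784 to 28379228), which encodes tristetraprolin, a protein that marks cytokine mRNAs for decay, stood at 1336, 1363 and 1369 CPM after weaning and 595, 454 and 571 CPM in pregnancy (log2 fold change 1.33 ± 0.22, edgeR adjusted p = 0.0231). Btg2 (chromosome 1, 134074865 to 134079155), an antiproliferative gene, stood at 477, 439 and 602 CPM after weaning and 214, 137 and 161 CPM in pregnancy (log2 fold change 1.57 ± 0.23, edgeR adjusted p = 0.0156). The stress genes Gadd45b (log2 fold change 1.68 ± 0.23, edgeR adjusted p = 0.0122) and Ppp1r15a (1.87 ± 0.27, edgeR adjusted p = 0.015), whose product restores translation by dephosphorylating eIF2-alpha, were higher too. In all 5 the lowest post-weaning library exceeded the highest pregnant one.

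Leaving out Pregnant replicate 2 or Pregnant replicate 3 ended all 11 calls, with edgeR adjusted p from 0.0676 (Fos) to 0.221 (Junb) without the first and from 0.0579 to 0.193 without the second. Between 1 and 6 of the 11 were called when another library was left out, and with Lactating replicate 3 also left out 10 of the 11 were called in every such fit, the exception being Csrnp1 (highest edgeR adjusted p = 0.0594). DESeq2 called 22 members, as did the fit to the 6 compared libraries alone, and limma-voom 13.

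**Figure D3:**
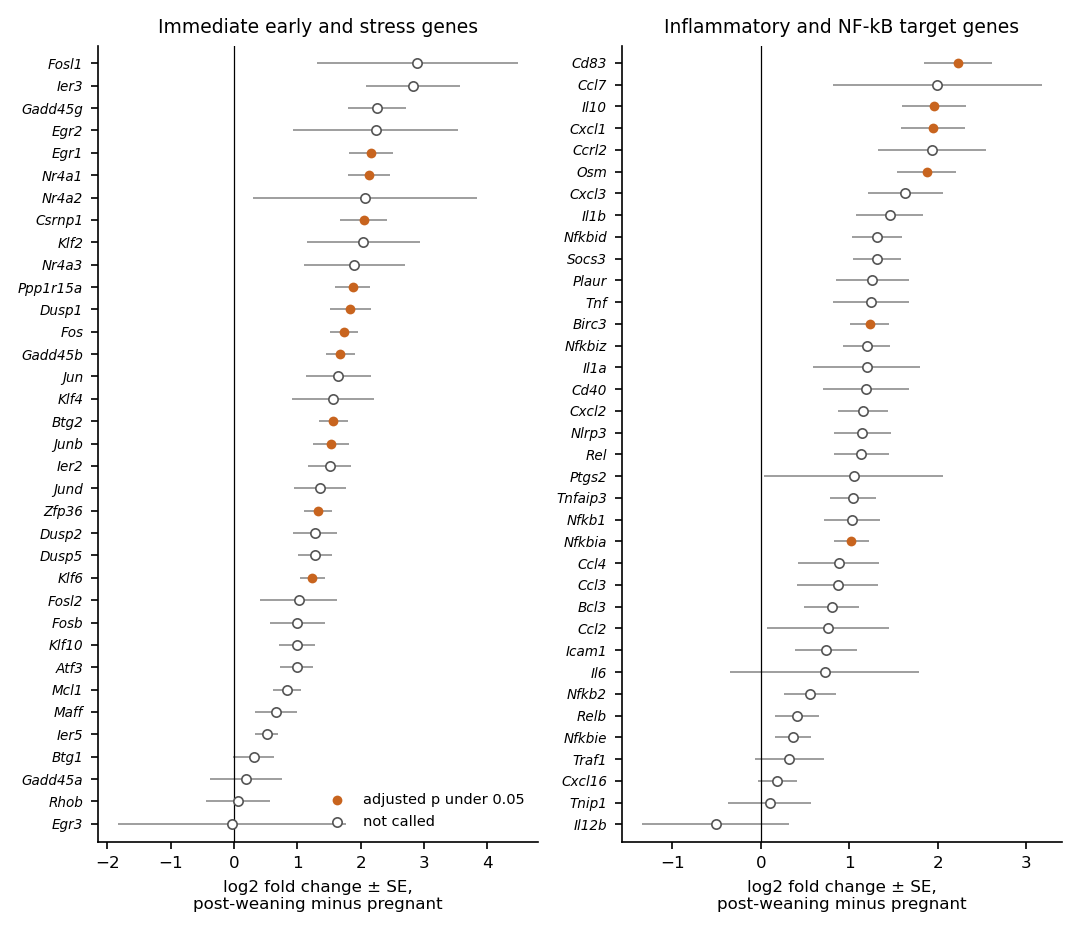
Each row is a tested member of the immediate early and stress list (35 genes) or of the inflammatory and NF-kB list (36 genes), placed by its log2 fold change, post-weaning minus pregnant, with bars of 1 SE; filled points are the 11 and 6 members called at adjusted p under 0.05. All members but Egr3 in the first panel and Il12b in the second lie to the right of 0.

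Promoters of called members are shown for the motifs they hold, since these genes moved together. The window was the 250 bases before the RefSeq start, and the promoters printed were chosen after the values were seen. A script searched both strands for the cyclic AMP response element TGACGTCA, the AP-1 site TGANTCA, the serum response element (CArG box) and the NF-kB site, of which the last can overlap itself on the opposite strand. Of all 32851 promoters in the RefSeq table of GRCm38.p6, 1.55% held the cyclic AMP response element, 6.75% the AP-1 site, 1.47% the CArG box and 7.25% the NF-kB site. Btg2, Dusp1 and Ppp1r15a held TGACGTCA, 3 of the 10 called members with a promoter in the table (30%), against 3.05% of the 9799 tested genes with one, where a gene counts if any of its promoters holds the motif. Over the whole list 4 of 30 did (13.3%), and over all 63 genes called higher with a promoter 5 did (7.94%). Zfp36 held a CArG box, Csrnp1 an AP-1 site and Fos an NF-kB site, each the only one of the 10. Capitals mark the match, and each sequence is written 5′ to 3′ on the strand of its gene, which is the minus strand for all 4.
Btg2 (chr1:134079156-134079405): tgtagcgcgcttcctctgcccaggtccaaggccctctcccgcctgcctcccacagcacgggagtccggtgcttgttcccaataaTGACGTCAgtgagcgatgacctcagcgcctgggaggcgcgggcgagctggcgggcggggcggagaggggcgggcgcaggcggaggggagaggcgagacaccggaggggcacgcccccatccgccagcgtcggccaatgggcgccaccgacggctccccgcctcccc
Dusp1 (chr17:26508473-26508722): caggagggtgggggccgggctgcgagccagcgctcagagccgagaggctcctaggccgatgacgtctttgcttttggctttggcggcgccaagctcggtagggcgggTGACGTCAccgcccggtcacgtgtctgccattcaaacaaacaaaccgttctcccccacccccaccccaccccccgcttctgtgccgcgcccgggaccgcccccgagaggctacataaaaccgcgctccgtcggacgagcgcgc
Ppp1r15a (chr7:45526269-45526518): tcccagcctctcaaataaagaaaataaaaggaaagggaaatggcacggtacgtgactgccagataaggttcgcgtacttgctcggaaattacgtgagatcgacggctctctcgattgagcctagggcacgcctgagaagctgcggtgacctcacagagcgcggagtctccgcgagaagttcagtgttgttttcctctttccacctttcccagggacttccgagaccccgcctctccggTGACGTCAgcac
Zfp36 (chr7:28379229-28379478): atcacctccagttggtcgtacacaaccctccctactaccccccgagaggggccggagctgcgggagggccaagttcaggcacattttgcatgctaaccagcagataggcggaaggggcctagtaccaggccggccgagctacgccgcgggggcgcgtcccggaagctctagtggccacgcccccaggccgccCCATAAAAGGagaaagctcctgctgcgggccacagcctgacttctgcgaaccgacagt
The cyclic AMP response element lay 166 to 159 bases before the start of Btg2, 143 to 136 before that of Dusp1 and 12 to 5 before that of Ppp1r15a. These are matches of letters and say nothing of which factor was bound.

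Some inflammatory and NF-kB target genes were also higher after weaning. Of 36 tested, 6 were higher and 0 lower, against 0.576% of all genes called higher, and their median log2 fold change was 1.14. In 29 of the 36 all post-weaning libraries lay above all pregnant ones (14% of all genes). The list took 2.95 to 3.32% of the counts after weaning and 1.19 to 1.61% in pregnancy. The called members include a cytokine that restrains inflammation, one that promotes it, a neutrophil chemokine and inhibitors of the pathway itself.

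Il10 (chromosome 1, 131019845 to 131024970), which encodes the anti-inflammatory cytokine interleukin-10, stood at 459, 312 and 434 CPM after weaning and 105, 71.9 and 134 CPM in pregnancy (log2 fold change 1.95 ± 0.36, edgeR adjusted p = 0.0343). Post-weaning replicate 2 was the lowest of its stage and still above every pregnant library. Il10ra, which encodes a chain of its receptor and was chosen after its values were seen, stood at 241, 353 and 379 CPM after weaning and 153, 143 and 148 CPM in pregnancy (log2 fold change 1.13 ± 0.21, edgeR adjusted p = 0.0345). Neither gene overlapped between the groups. Osm, the IL-6 family cytokine oncostatin M, stood at 136, 216 and 189.9 CPM after weaning and 63.7, 46.9 and 37.5 CPM in pregnancy (log2 fold change 1.87 ± 0.34, edgeR adjusted p = 0.0311). Cxcl1 (chromosome 5, 90891245 to 90893121), a chemokine that draws neutrophils, stood at 2291, 1765 and 2236 CPM after weaning and 620.2, 489 and 525 CPM in pregnancy (log2 fold change 1.94 ± 0.36, edgeR adjusted p = 0.0343). Cd83 (chromosome 13, 43785112 to 43803133), a surface protein of activated antigen-presenting cells, stood at 3956, 3165 and 3677 CPM after weaning and 844, 576 and 883 CPM in pregnancy (log2 fold change 2.23 ± 0.39, edgeR adjusted p = 0.0266). The separation was wide for Cd83, with the lowest post-weaning library at 3165 CPM and the highest pregnant library at 883 CPM.

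Nfkbia (chromosome 12, 55489409 to 55492647) encodes the inhibitor I-kappa-B-alpha, which holds NF-kB in the cytoplasm and is itself induced by it. It stood at 2347, 2263 and 2366 CPM after weaning and 1259, 919.8 and 1248 CPM in pregnancy (log2 fold change 1.03 ± 0.19, edgeR adjusted p = 0.0353), a small and even difference. Birc3, an apoptosis inhibitor of the same pathway, stood at 149, 204 and 179.8 CPM after weaning and 62.8, 65.5 and 98.2 CPM in pregnancy (log2 fold change 1.23 ± 0.22, edgeR adjusted p = 0.03). Outside the list, and chosen after their values were seen, Nfkbib (1.66 ± 0.24), another inhibitor, Rela (1.09 ± 0.22), the p65 subunit, and Zc3h12a (1.13 ± 0.18), an RNase that degrades cytokine mRNAs, were called higher by log2 fold change at edgeR adjusted p = 0.015, 0.0498 and 0.0184. The cytokine genes Tnf, Il1b and Il6 were not called, at 1.24 ± 0.43, 1.46 ± 0.38 and 0.72 ± 1.07 on the log2 scale (edgeR adjusted p = 0.305, 0.138 and 0.994). No single library could be left out without ending all 6 calls of the list, with edgeR adjusted p between 0.0521 and 0.216, and with Lactating replicate 3 also left out 5 of the 6 were called in every such fit, the exception being Birc3. The fit to the 6 compared libraries alone called 22 members of the list and DESeq2 18.

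Of the 36 genes of the inflammatory list 25 had a promoter in the RefSeq table, and 13 of these held an NF-kB site (52.0%). The share was 10.6% of the 9799 tested genes with a promoter. The list was written to hold NF-kB target genes, so this excess does not bear on the difference between the stages. Of the genes with a promoter, 17.5% of those called higher and 18.8% of those called lower held the site. Only 3 of the 6 called members of the list had a promoter, and 2 held it. These were Cxcl1, on the plus strand, and Nfkbia, on the minus strand, printed with the site in capitals.
Cxcl1 (chr5:90890995-90891244): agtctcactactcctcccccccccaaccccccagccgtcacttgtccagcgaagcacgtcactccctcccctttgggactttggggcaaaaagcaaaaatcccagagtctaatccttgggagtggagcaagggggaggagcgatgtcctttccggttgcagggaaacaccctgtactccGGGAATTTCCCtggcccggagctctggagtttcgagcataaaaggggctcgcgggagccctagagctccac
Nfkbia (chr12:55492648-55492897): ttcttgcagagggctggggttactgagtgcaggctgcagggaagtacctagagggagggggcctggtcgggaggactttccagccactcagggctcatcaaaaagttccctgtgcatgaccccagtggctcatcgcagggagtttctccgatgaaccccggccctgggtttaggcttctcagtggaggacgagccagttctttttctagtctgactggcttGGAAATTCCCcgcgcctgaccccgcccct
The capitals of Cxcl1 span a pair of overlapping matches, 71 to 61 bases before the start, and those of Nfkbia lie 29 to 20 bases before it.

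Genes for adhesion, metabolism and growth were among the other large differences. Igfbp5 (chromosome 1, 72858065 to 72874865), a binding protein for insulin-like growth factors that regressing mammary epithelium secretes, stood at 259, 81.9 and 59 CPM after weaning and 6.56, 2.29 and 8.16 CPM in pregnancy (log2 fold change 4.54 ± 0.85, edgeR adjusted p = 0.0353). Post-weaning replicate 1 was far above the others. The order of the post-weaning libraries was that of the luminal keratin gene Krt18, at 275, 156 and 71.4 CPM. In pregnancy Krt18 stood at 39.4, 21.1 and 21.6 CPM, highest in replicate 1, while Igfbp5 was highest in replicate 3. Epcam, another luminal gene, had the same post-weaning order, at 228, 134 and 57.9 CPM. It overlapped the pregnant libraries, at 208, 188 and 171 CPM (edgeR adjusted p = 0.996). The part of epithelial RNA in the Igfbp5 difference was not tested. Itga5, the alpha-5 chain of the fibronectin receptor, stood at 213, 177 and 224 CPM after weaning and 42.6, 18.8 and 32.7 CPM in pregnancy (log2 fold change 2.70 ± 0.37, edgeR adjusted p = 0.0122). Id3, an inhibitor of basic helix-loop-helix factors, stood at 58.9, 61.2 and 60.6 CPM after weaning and 5.78, 10.1 and 4.85 CPM in pregnancy (log2 fold change 3.13 ± 0.46, edgeR adjusted p = 0.0156), with the post-weaning libraries within 3 CPM of each other.

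Rcan1 (chromosome 16, 92391951 to 92466169), an inhibitor of the phosphatase calcineurin, stood at 997, 1244 and 1025 CPM after weaning and 176, 114 and 249.6 CPM in pregnancy (log2 fold change 2.60 ± 0.33, edgeR adjusted p = 0.00796). Hepacam2, a member of the immunoglobulin superfamily, stood at 128, 134 and 244 CPM after weaning and 23.9, 18.4 and 24.8 CPM in pregnancy (log2 fold change 2.91 ± 0.33, edgeR adjusted p = 0.0062). Ckb, the brain-type creatine kinase, stood at 247, 239 and 176 CPM after weaning and 56.8, 25.9 and 36.1 CPM in pregnancy (log2 fold change 2.48 ± 0.31, edgeR adjusted p = 0.00796). In each of these 3 genes the lowest post-weaning library was above the highest pregnant one. Dab2, a clathrin adaptor of endocytosis chosen after its values were seen, stood at 383, 384 and 458 CPM after weaning and 104, 70.4 and 96.6 CPM in pregnancy (log2 fold change 2.18 ± 0.25, edgeR adjusted p = 0.0062). Dab2, Hepacam2 and Rcan1 kept their call in 5 of the 6 fits that left out 1 compared library and lost it without Pregnant replicate 2 (edgeR adjusted p = 0.0579).

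Gdf15, a stress-induced cytokine of the TGF-beta superfamily, stood at 214, 324 and 248 CPM after weaning and 67.5, 43.4 and 40.4 CPM in pregnancy (log2 fold change 2.38 ± 0.37, edgeR adjusted p = 0.0184), the only called member of 24 tested growth factor and receptor genes. Igf1, a growth factor for mammary epithelium, stood at 32, 64 and 41.1 CPM after weaning and 8.9, 10.2 and 14.4 CPM in pregnancy (log2 fold change 2.03 ± 0.55, edgeR adjusted p = 0.184), without overlap. Slc11a1, the phagosomal metal transporter NRAMP1, stood at 554, 567 and 607 CPM after weaning and 157, 115 and 113 CPM in pregnancy (log2 fold change 2.17 ± 0.32, edgeR adjusted p = 0.0156), and Hpgd, the enzyme that inactivates prostaglandins, at 667, 919 and 704 CPM after weaning and 269, 322 and 280.3 CPM in pregnancy (log2 fold change 1.39 ± 0.20, edgeR adjusted p = 0.0126). Both are in the list of 21 iron and heme genes, whose median log2 fold change was 0.84 and which had no other called member, but only Slc11a1 is a gene of iron handling. In the fit to the 6 compared libraries alone 6 of that list were higher, as were 4 of the growth factor list, with 1 lower.

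Glucocorticoid-responsive genes had 3 called higher of 20 tested: Dusp1, already described, the transcription factor gene Cebpb (1421, 1370.4 and 1319.5 CPM after weaning and 619, 410.0 and 418 CPM in pregnancy) and the EGF receptor inhibitor gene Errfi1 (183, 127 and 139.6 CPM after weaning and 36.2, 39.5 and 26.8 CPM in pregnancy). Their differences were 1.51 ± 0.24 for Cebpb and 2.13 ± 0.37 for Errfi1 on the log2 scale (edgeR adjusted p = 0.0184 and 0.0253), and neither overlapped between the groups. Chemokine genes had 2 of 28 called, Cxcl1 and Ccl9, a CCR1 ligand with a difference of 1.69 ± 0.34 (edgeR adjusted p = 0.0481). Adam8, a metalloprotease of leukocytes, was the only called member of 24 matrix remodelling genes. It stood at 51.6, 104 and 111 CPM after weaning and 29.1, 27.9 and 32.3 CPM in pregnancy (log2 fold change 1.58 ± 0.32, edgeR adjusted p = 0.0478). The list's median was 1.32, and 14 of 24 members lay above without overlap, against 14% of all genes. Fitting the 6 compared libraries alone gave 5 glucocorticoid-responsive, 8 chemokine and 7 matrix remodelling genes higher after weaning. The antioxidant genes Sqstm1 (0.99 ± 0.18), the autophagy receptor p62, and Txnrd1 (1.00 ± 0.20), thioredoxin reductase, were higher, while Txn1 (-1.34 ± 0.24), thioredoxin itself, was lower (edgeR adjusted p = 0.03, 0.0498 and 0.0303). The cell cycle inhibitor gene Cdkn1a, chosen after its values were seen, stood at 417, 364 and 439.7 CPM after weaning and 169, 99.1 and 121 CPM in pregnancy (log2 fold change 1.65 ± 0.26, edgeR adjusted p = 0.0184).

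Cd81, a tetraspanin chosen after its values were seen, stood at 2260.4, 2125 and 2112 CPM after weaning and 633, 492 and 413 CPM in pregnancy (log2 fold change 2.08 ± 0.35, edgeR adjusted p = 0.0231). Il10ra and the genes named from Igfbp5 to Cd81, apart from Igf1, Dusp1, Cxcl1, Krt18, Epcam and Txn1, make 19 genes. Of these 19, 4 to 7 were called when a post-weaning library was left out. Of the pregnant libraries, leaving out replicate 1 left 9 called, replicate 2 left 0 and replicate 3 left 3. With Lactating replicate 3 also left out, 15 were called in all 6 such fits. Igfbp5 was not, at a highest edgeR adjusted p of 0.108.

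Single genes of antigen processing, complement and DNA digestion were lower after weaning. Ifi30 (chromosome 8, 70762773 to 70766663) encodes GILT, the thiol reductase that unfolds antigens in the lysosome. It stood at 139, 181 and 239 CPM after weaning and 659, 763 and 679 CPM in pregnancy. The pregnant libraries agreed closely and lay at least 2-fold above every post-weaning one (log2 fold change -1.91 ± 0.22, edgeR adjusted p = 0.0062). Cfp (chromosome X, 20925454 to 20931555), which encodes properdin, the stabiliser of the alternative complement convertase, stood at 33.2, 71.8 and 35.9 CPM after weaning and 631, 700.3 and 474 CPM in pregnancy (log2 fold change -3.68 ± 0.61, edgeR adjusted p = 0.0231). Dnase1l3 (chromosome 14, 7965187 to 7994760), a secreted enzyme of phagocytes that digests DNA of dying cells, stood at 256, 283 and 333 CPM after weaning and 1008, 1079 and 1510.4 CPM in pregnancy (log2 fold change -2.05 ± 0.36, edgeR adjusted p = 0.03).

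H2-Q7 (chromosome 17, 35439140 to 35443773), a non-classical MHC class I gene, stood at 25.9, 24.9 and 32.3 CPM after weaning and 128, 132 and 111 CPM in pregnancy (log2 fold change -2.16 ± 0.33, edgeR adjusted p = 0.0165). The neighbouring H2-Q6 stood at 47.7, 36.8 and 49.95 CPM after weaning and 56.9, 56.1 and 38.1 CPM in pregnancy (edgeR adjusted p = 0.998), and reads of these near-identical genes may have been divided between them. Il2rg (chromosome X, 101264385 to 101268255), the shared gamma chain of cytokine receptors, stood at 147, 145 and 135 CPM after weaning and 426, 484 and 449.6 CPM in pregnancy (log2 fold change -1.68 ± 0.30, edgeR adjusted p = 0.0316), with both groups tight. S100a4 (chromosome 3, 90603770 to 90606045), a calcium-binding protein of motile cells and monocytes, stood at 1.01, 0.612 and 0.951 CPM after weaning and 44.1, 62.9 and 47.3 CPM in pregnancy (log2 fold change -5.89 ± 1.02, edgeR adjusted p = 0.0265). In pooled counts S100a4 had 28 after weaning and 2088 in pregnancy, 57.5 times lower after scaling by library size (95% counting interval 39.7 to 86.8). The list of monocyte genes did not follow it: of 9 tested, 7 were positive and only S100a4 was called lower, with a median of 0.35. The 1 member called higher was Nr4a1, already described among the immediate early genes. That list took 0.0392 to 0.0537% of the counts after weaning and 0.0242 to 0.0311% in pregnancy.

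No other member of the MHC and complement lists passed in the edgeR fit to all 12 libraries. Of 16 tested MHC class II presentation genes, 1 was lower (Ifi30) and 0 higher, with a median log2 fold change of 0.19. The class II genes Cd74 (0.81 ± 0.41) and H2-Ab1 (0.26 ± 0.40) were not called on the log2 scale (edgeR adjusted p = 0.561 and 0.996). Cd74, the invariant chain, stood at 82589, 76244 and 91682 CPM after weaning and 55657, 49845 and 37703 CPM in pregnancy, and passed without Lactating replicate 3, at edgeR adjusted p = 0.0085. Of 25 MHC class I and peptide-loading genes 1 was lower (H2-Q7), with a median of -0.34, and of 21 complement genes 1 was lower (Cfp), with a median of 0.07. The class II list took 14.3 to 16.7% of the counts after weaning and 10.98 to 12.6% in pregnancy. DESeq2 called 3 complement genes higher and 3 lower, and limma-voom 0 and 3. Of the class I list DESeq2 called 1 higher and 1 lower, and limma-voom 0 and 1, while both called 0 higher and 1 lower of class II. In the fit to the 6 compared libraries alone the class II list had 2 higher and 1 lower, the class I list 1 higher and 2 lower, and the complement list 4 higher and 3 lower. Dendritic cells also express several of these genes, and the list of dendritic cell genes took 0.0791 to 0.101% of the counts after weaning and 0.104 to 0.127% in pregnancy. Flt3, a defining dendritic cell gene, stood at 0, 0 and 0.691 CPM after weaning and 1.67, 0.115 and 1.16 CPM in pregnancy, overlapping (edgeR adjusted p = 0.956). Zbtb46, another such gene, went the other way, with 0, 0 and 31 counts after weaning and 0 in every pregnant library. Xcr1 stood at 4.3, 0 and 1.21 CPM after weaning and 5.78, 7.34 and 2.07 CPM in pregnancy, overlapping (edgeR adjusted p = 0.922). The part of dendritic cells in these differences was not tested. Lyz2, the macrophage lysozyme gene, stood at 7504, 11043 and 10154 CPM after weaning and 26955, 27315 and 24327 CPM in pregnancy, without overlap, and did not pass (edgeR adjusted p = 0.213).

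Ifi30 kept its call in 5 of the 6 fits that left out 1 compared library and lost it without Pregnant replicate 2 (edgeR adjusted p = 0.0579). The calls of Cfp, H2-Q7, Dnase1l3, Il2rg and S100a4 were lost in all 6 of these fits, at edgeR adjusted p up to 0.169. With Lactating replicate 3 also left out, all 6 but Cfp were called in every such fit.

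**Figure D4:**
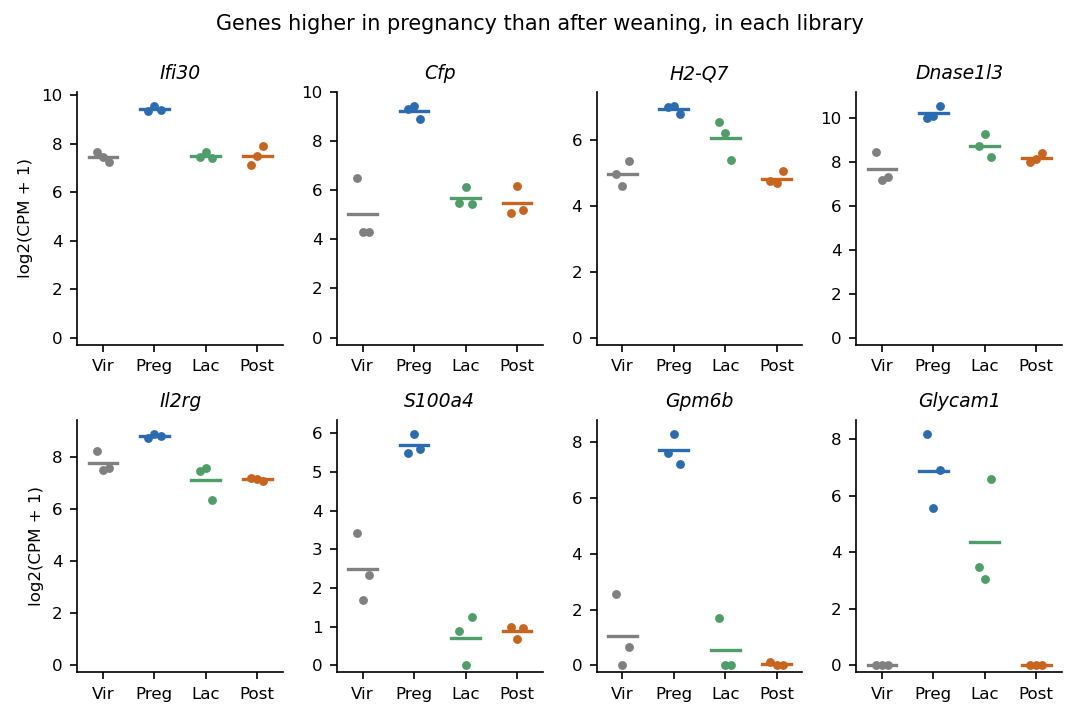
Each panel shows 1 gene, with log2(CPM + 1) on the vertical axis and the stages virgin, pregnant, lactating and post-weaning on the horizontal axis; points are the 3 libraries of a stage and bars their mean. In each of the 8 panels the 3 pregnant points lie above the 3 post-weaning points, and Glycam1 has 0 counts in every virgin and post-weaning library.

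Glycam1 and Fabp3, genes of the secretory epithelium, and Gpm6b were almost absent after weaning. Glycam1 (chromosome 15, 103562759 to 103565081), a mucin of the secretory mammary epithelium, had 0 counts after weaning and 5945 in pregnancy, at least 1529-fold lower against a floor of 3 counts pooled over the 3 post-weaning libraries (edgeR adjusted p = 0.0371). It stood at 0, 0 and 0 CPM after weaning and 293, 46.1 and 120.3 CPM in pregnancy. The order of the pregnant libraries was that of Csn2, with replicate 1 highest and replicate 2 lowest. Fabp3 (chromosome 4, 130308738 to 130315463), a fatty acid binding protein of heart, muscle and lactating epithelium, had 4 counts after weaning and 1113 in pregnancy, a ratio of 215 (95% counting interval 83.6 to 789), and stood at 0, 0.306 and 0.0864 CPM after weaning and 78.6, 8.03 and 13.9 CPM in pregnancy (edgeR adjusted p = 0.0498), in the same order. The part of milk-secreting cells in Glycam1 and Fabp3 was not tested.

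Gpm6b (chromosome X, 166238943 to 166389033), which encodes a membrane proteolipid, had 1 count after weaning and 8026 in pregnancy, a ratio of 6192 (95% counting interval 1111 to 244603). It stood at 0.0916, 0 and 0 CPM after weaning and 193, 315 and 147 CPM in pregnancy (log2 fold change -12.33 ± 2.02, edgeR adjusted p = 0.0226). Its pregnant libraries were not in the order of the milk genes, with replicate 2 highest. The part of milk-secreting cells in Gpm6b was not tested either. The counting intervals and the floor cover counting error only. Of 24 tested milk and secretory cell genes 1 was lower (Glycam1), 11 were positive and 13 negative, with a median of -0.21, and in the fit to the 6 compared libraries alone 2 were higher and 6 lower.

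Cell division and oxidative phosphorylation genes lay mostly below their pregnant levels after weaning, and few passed the test. Of 48 tested cell cycle genes 0 passed by edgeR, with 1 higher and 11 lower at an unadjusted p under 0.05, 1 higher and 2 lower by DESeq2, and 2 lower by limma-voom. Their median log2 fold change was -1.91, 46 of the 48 were negative, and in 34 all post-weaning libraries lay below all pregnant ones, against 13.3% of all genes. In the fit to the 6 compared libraries alone 17 were lower. The list took 0.0583 to 0.0765% of the counts after weaning, 0.200 to 0.220% in pregnancy and 0.0526 to 0.0762% in virgin libraries. Mki67, the proliferation marker Ki-67, stood at 4.67, 36.7 and 17.7 CPM after weaning and 59.9, 76.5 and 103 CPM in pregnancy (log2 fold change -2.02 ± 0.71, edgeR adjusted p = 0.316). Outside the list, Hmgb2 and Dek, chromatin proteins abundant in dividing cells, were called lower, Hmgb2 at 26.4, 16 and 16.3 CPM after weaning and 45.8, 70.3 and 70.1 CPM in pregnancy (log2 fold change -1.67 ± 0.31, edgeR adjusted p = 0.0353) and Dek at 107, 123 and 62.7 CPM after weaning and 268, 401 and 344 CPM in pregnancy (log2 fold change -1.79 ± 0.28, edgeR adjusted p = 0.0175).

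Nuclear-encoded oxidative phosphorylation genes had 1 called lower of 66, Atp5g3, a subunit of ATP synthase, at 153, 161 and 150.3 CPM after weaning and 321, 416 and 438 CPM in pregnancy (log2 fold change -1.34 ± 0.24, edgeR adjusted p = 0.0316). Their median was -0.57, and 40 of the 66 lay below without overlap, against 13.3% of all genes. DESeq2 called 12 of them lower and the fit to the 6 compared libraries alone 13. All 13 mitochondrially encoded genes were negative, with a median of -0.95. Of these 0 passed by edgeR, 10 were lower at an unadjusted p under 0.05, 5 by DESeq2 and 1 by limma-voom, and they took 0.885 to 1.43% of the counts after weaning and 2.10 to 2.42% in pregnancy. Cytosolic ribosomal protein genes had a median of -0.66 over 77 genes, -0.23 without Pregnant replicate 3, and 0 passed by edgeR or limma-voom, with 17 lower at an unadjusted p under 0.05 and 4 by DESeq2. Sec61b, a channel protein of the endoplasmic reticulum, was called lower, at 58.2, 54.4 and 48.1 CPM after weaning and 123, 204 and 184 CPM in pregnancy (log2 fold change -1.67 ± 0.29, edgeR adjusted p = 0.0291). Glycolysis and hypoxia genes (26 tested) had a median of 0.14, with 15 positive. Of the 26, 8 lay above and 3 below without overlap, against 14% and 13.3% of all genes. By edgeR, DESeq2 or limma-voom 0 were called, with 6 higher and 1 lower at an unadjusted p under 0.05. The nuclear RNA Malat1, often high in damaged cells, stood at 10198, 6189.8 and 5679.6 CPM after weaning and 6564, 5183 and 6817 CPM in pregnancy and overlapped (edgeR adjusted p = 0.996). The part of RNA quality in the mitochondrial and ribosomal values was not tested.

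Leaving out 1 of the 6 libraries ended all 8 calls of Gpm6b, Fabp3, Glycam1, Dek, Hmgb2, Sec61b, Txn1 and Atp5g3, except for 2 without Pregnant replicate 1, with edgeR adjusted p up to 0.259 (Fabp3). With Lactating replicate 3 also left out, 5 of the 8 were called in every such fit, and Fabp3 reached 0.105.

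Other pathways tied to macrophage activation had few or no called members. The median log2 fold change was -0.06 over 35 type I interferon-stimulated genes and -0.01 over 18 interferon-gamma response genes, and 0 of each passed by edgeR, with 0 higher and 2 lower, and 1 higher and 1 lower, at an unadjusted p under 0.05. By DESeq2 0 and 1 of them passed, and by limma-voom 0 and 1. Lysosomal genes (51 tested) had a median of -0.13, with 0 called by edgeR, DESeq2 or limma-voom and 2 lower at an unadjusted p under 0.05, and with 1 higher and 4 lower in the fit to the 6 compared libraries alone. Toll-like and lectin receptor genes (25 tested) had a median of 0.43, with 0 called by edgeR, 8 higher at an unadjusted p under 0.05, 5 higher by DESeq2 and 1 by limma-voom. In the 6 compared libraries alone 8 of them were called higher. Without overlap, 11 of the 25 lay above and 2 below, and of the 51 lysosomal genes 4 above and 11 below, against 14% and 13.3% of all genes. Shares of the counts after weaning and in pregnancy were 1.11 to 1.15% and 0.734 to 0.769% for Toll-like and lectin receptor genes. They were 5.78 to 6.19% and 6.62 to 7.40% for lysosomal, 0.141 to 0.148% and 0.157 to 0.213% for type I interferon, and 0.187 to 0.192% and 0.199 to 0.216% for interferon-gamma genes.

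**Figure D5:**
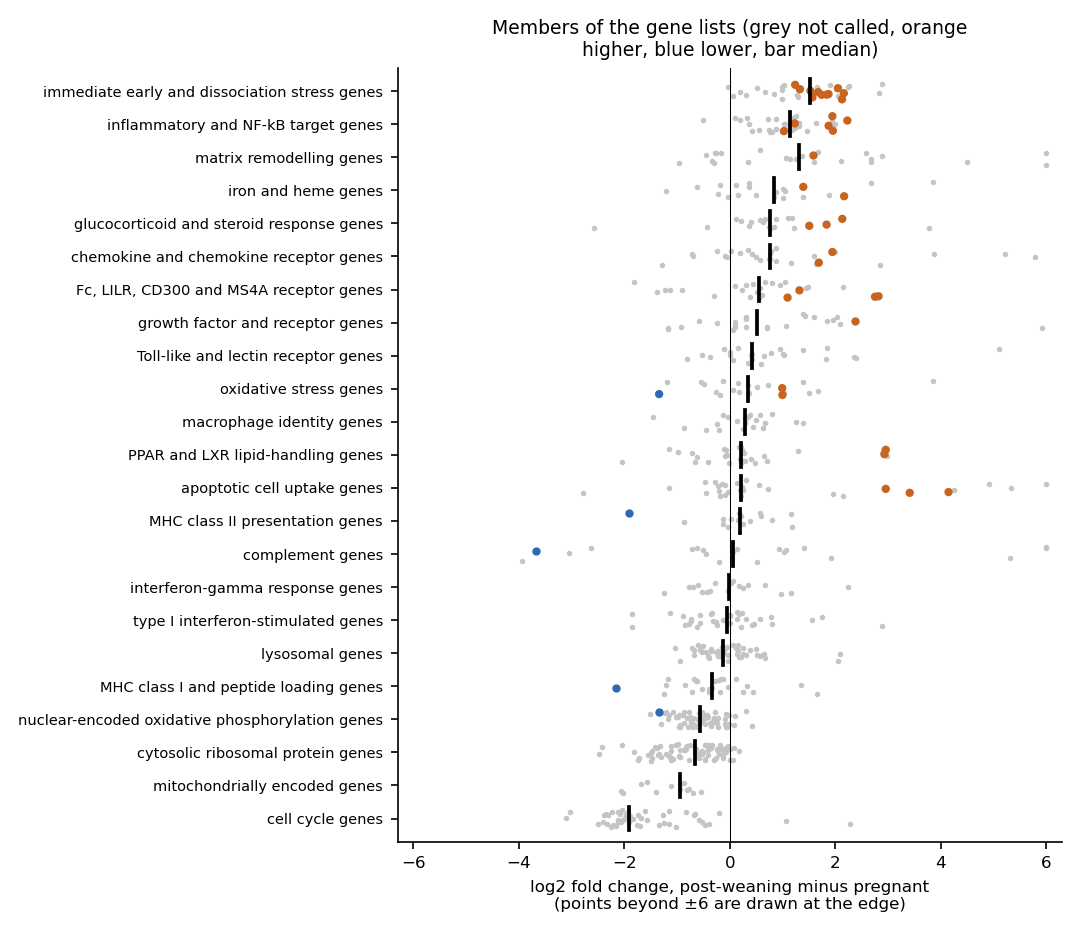
Each row is 1 of 23 gene lists; points are its tested members at their log2 fold change, post-weaning minus pregnant, and the black bar is the median. Immediate early and inflammatory lists have medians of 1.53 and 1.14, and the cell cycle list one of -1.91 with 0 called members.

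Set against virgin libraries, the post-weaning libraries gave 0 called genes of 12672 by edgeR (0%), with 765 at an unadjusted p under 0.05. DESeq2 called 125, and edgeR called 10 without Lactating replicate 3 and 1 in a fit to those 6 libraries. This comparison also tests whether the differences of post-weaning and virgin libraries from pregnancy are unequal, since the pregnant libraries cancel, and it shares the post-weaning libraries with the comparison above. Lilr4b stood at 1042, 1799 and 1116 CPM in virgin libraries, around its post-weaning level, with a log2 difference from virgin of -0.12 ± 0.23. For Trem2 the virgin values were 33.4, 123 and 53.7 CPM, with a difference of -0.18 ± 0.57, and for Fos they were 1375, 1731 and 1979 CPM, with a difference of 0.07 ± 0.21. Ifi30 stood at 200.2, 177 and 149 CPM in virgin libraries, with a difference of 0.09 ± 0.21.

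Members that lay further from virgin, chosen after their values were seen, were Il10, at 169, 146 and 232 CPM in virgin libraries and 1.14 ± 0.36 above them after weaning on the log2 scale, Gdf15, at 49.5, 129 and 97.8 CPM and 1.51 ± 0.36, Adam8, at 30.3, 34.9 and 26.5 CPM and 1.54 ± 0.31, and Igfbp5, at 17.7, 9.27 and 59.6 CPM and 2.20 ± 0.77. S100a4 stood between the groups, at 9.76, 2.22 and 4.09 CPM. None of these passed the test against virgin, the lowest edgeR adjusted p among them being 0.413, for Adam8, and such a p does not show that the stages were alike.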

How the data were processed

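RNA of sorted ductal macrophages was sequenced from 12 libraries, prepared with the SMART-Seq v4 kit, which makes full-length cDNA without molecular identifiers, in 1 sequencing run, per the labels' protocols. The authors deposited raw counts per gene, whole numbers with no normalization, made with featureCounts on mm10 per the submitters' processing notes; the sources used here do not give the aligner, annotation or strand setting, so overlapping and antisense genes cannot be told apart. The count tables held 27179 Entrez genes, of which 25275 (93%) were matched to symbols and coordinates in a RefSeq table of GRCm38.p6. No 2 libraries of a stage were identical. Promoter sequences are from RefSeq, GRCm38.p6.

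Groups were taken from the labels. Genes were filtered with filterByExpr by stage (12672 kept) and scaled by TMM. A robust quasi-likelihood model with 1 mean per stage was fitted to all 12 libraries in edgeR 4.0.16 (R 4.3.3; common biological coefficient of variation 0.856), with Benjamini-Hochberg adjustment over all genes and calls at an adjusted p under 0.05. CPM were computed here from the counts and the TMM-scaled totals. The SE is that of the log2 fold change, from its F statistic. The procedure was tested on simulated data. Alternatives used DESeq2 1.42.0, limma-voom (limma 3.58.1), other scalings and filters, a replicate block, fewer libraries and a 2-fold threshold.

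Named genes were the 12 largest called rises and falls that did not overlap and averaged at least 3 on the log2 CPM scale, 3 called members per list by adjusted p (all where a list had 1 or 2) and 16 fixed genes. Genes said to be chosen after their values were seen, and the immediate early and NF-kB members and marker genes beyond the rule, fall outside it. The comparison, its gene lists (44) and the rule were chosen with earlier results of these data known.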

Additional observations from a re-analysis of the deposited data

How the results depend on the processing

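The 91 genes called (73 higher, 18 lower after weaning) became 505 (365 and 140) with DESeq2, 167 (109 and 58) with limma-voom, 590 (386 and 204) in a fit to the 6 compared libraries, 308 (227 and 81) without Lactating replicate 3 and 1 (1 and 0) in a test against a 2-fold change. The share of calls that were higher was 80.2% in the fit reported, 65.3% with limma-voom and 65.4% with the 6 libraries. RLE size factors, TMM computed on fewer genes (milk, epithelial, mitochondrial and ribosomal ones left out), the unfiltered table and a filter of 5 CPM in 3 libraries gave 85 to 103 calls. Leaving out each of the 6 replicates gave 1 to 33 calls (1 to 30 higher and 0 to 3 lower). Leaving out Lactating replicate 3 as well, an alternative chosen after seeing the data, gave 126 to 198 (99 to 155 higher and 27 to 49 lower). All 91 genes kept their sign under every setting, which for left-out replicates follows from their lack of overlap. Calls against virgin moved from 0 to 125 with DESeq2, 10 without Lactating replicate 3 and 1 with the 6 libraries. The cause of these changes was not tested.

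With the replicate number as a block, 35 genes were called (29 higher, 6 lower), and 344 (233 higher, 111 lower) in the 6 compared libraries. Deviations of post-weaning and pregnant libraries of the same number correlated at r = 0.021, 0.036 and 0.01, and those of different numbers at -0.023 to 0.00029. Each library was highest with its own number, but all values were near 0. They come from the data and not the design, so the numbers were not taken to pair the samples. Depth limits the low-count genes: a gene at 0 after weaning is bounded only by the floor of 3 pooled counts. With 3 libraries per stage and the spread shared with Lactating replicate 3, a gene that missed the threshold is not shown to be unchanged.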
